A study of Homo sapiens with 6 samples.

Results

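The NuRD complex (nucleosome remodelling and deacetylase) was described here through the RNA of 10 genes that encode its subunits: MTA1, MTA2, MTA3, CHD3, CHD4, MBD2, MBD3, GATAD2A, RBBP4 and RBBP7. The members were all probe sets that the platform annotation assigns to exactly 1 of these symbols, which gave 30 of the 54675 probe sets on the array. The RNA came from MDA-MB-231 cells, an established line of oestrogen receptor-negative breast cancer. The 3 control arrays hold RNA of cells transfected with control siRNA, and the 3 LSD1 arrays hold RNA of cells transfected with siRNA against LSD1. LSD1 is the histone demethylase encoded by KDM1A. All cells were transfected in 2 rounds and taken after 6 days, and the study's design text calls the 3 arrays of a group biological replicates. Both groups come from the same line, and the labels give no siRNA sequence, so what this siRNA does through LSD1 and what it may do to other RNAs cannot be told apart. The comparison asks what loss of LSD1 RNA does to gene expression in these cells.

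NuRD couples an ATP-dependent nucleosome remodeller (CHD3 or CHD4) with histone deacetylases (HDAC1 and HDAC2) and is known mainly as a repressor of transcription. MTA proteins hold the deacetylases, RBBP4 and RBBP7 bind histones, MBD2 or MBD3 joins the deacetylase and remodeller modules, and GATAD2A or GATAD2B bridges the MBD protein to the remodeller. MBD2 binds methylated DNA, MBD3 largely does not, and the members of such paralog pairs mostly replace each other in a given complex. LSD1 has been found with NuRD in breast cancer cells, where the joint complex removes active marks from histones. RBBP4, RBBP7, HDAC1 and HDAC2 are also part of complexes other than NuRD.

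After LSD1 siRNA, 7 of the 10 subunit genes fell, none rose and 3 did not pass the test. GATAD2A fell to 47.0% of its control signal, and MBD3, MTA1, RBBP4 and RBBP7 fell to between 61.8% and 72.7%. CHD4 and MBD2 fell to 83.6% and 87.7%, while MTA2, MTA3 and CHD3 did not pass. Each gene is represented by its brightest probe set, changes are differences of log2(signal + 15), and a gene passed at a limma p adjusted by Benjamini-Hochberg over 13822 genes of under 0.05. The share of all genes tested that fell by the same rule was 21.3%, and 19.8% rose. A test of only the genes brighter than the 60th percentile of all probe sets held 9 subunit genes. By that test 7 of these and 2978 of all 10537 genes fell, so falls were more frequent among brighter genes. The median log2 change of the 10 subunit genes was -0.48, beside -0.02 over all genes tested.

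The promoters of the members were read because most members moved the same way. Those shown are of 4 genes that fell and of CHD3, which did not pass the test. The 4 are the members with CCAAT in a window, so they do not stand for all that fell. The 250 bases before each start, from RefSeq on GRCh38.p14, gave 15 windows for the 10 genes, since 5 genes have a pair of starts. In these 5 genes the window of the later start lies wholly or partly past the earlier start, so it can hold transcribed bases. The letters GGGCGG, the core of the GC box, occur on either strand in 13 of the 15 windows, in 9 of the 10 genes, and in 42.6% of all 35114 windows of the same length. CHD3 is the gene without them. The letters CCAAT occur on either strand in 6 windows, of MBD3, GATAD2A, RBBP4 and RBBP7, and in 32% of all windows. MTA1, CHD4 and MBD2, which also fell, have no CCAAT. The CCAAT of GATAD2A lies in its window that is not shown. The RBBP4 windows overlap, so a GGGCGG and a CCAAT in their shared bases are counted in both. The median GC content was 72% in the member windows and 58% over all windows. Capitals mark GGGCGG and CCAAT on either strand, as well as CACGTG in the RBBP4 window, and neighbouring matches can overlap. The windows are chr19:19405425-19405674 on the plus strand for GATAD2A, chr19:1592866-1593115 on the minus strand for MBD3, and chr1:32650958-32651207 on the plus strand for RBBP4. Those of RBBP7 and CHD3 are chrX:16870363-16870612 on the minus strand and chr17:7888539-7888788 on the plus strand.
GATAD2A: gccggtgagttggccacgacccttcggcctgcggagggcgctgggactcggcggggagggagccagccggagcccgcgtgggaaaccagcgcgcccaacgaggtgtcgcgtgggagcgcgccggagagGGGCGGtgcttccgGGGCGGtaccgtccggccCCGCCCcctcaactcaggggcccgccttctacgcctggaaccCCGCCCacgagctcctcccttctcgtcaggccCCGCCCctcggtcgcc
MBD3: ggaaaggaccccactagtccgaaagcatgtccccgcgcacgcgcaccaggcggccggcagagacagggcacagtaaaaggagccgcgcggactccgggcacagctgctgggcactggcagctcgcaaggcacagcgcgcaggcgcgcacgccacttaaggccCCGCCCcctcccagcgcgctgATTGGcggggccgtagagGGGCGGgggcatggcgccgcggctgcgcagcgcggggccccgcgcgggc
RBBP4: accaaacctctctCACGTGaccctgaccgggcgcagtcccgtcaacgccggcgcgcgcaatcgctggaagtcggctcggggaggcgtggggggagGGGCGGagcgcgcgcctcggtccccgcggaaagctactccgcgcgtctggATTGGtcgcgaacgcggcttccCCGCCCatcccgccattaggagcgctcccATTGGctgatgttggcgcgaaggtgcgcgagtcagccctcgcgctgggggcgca
RBBP7: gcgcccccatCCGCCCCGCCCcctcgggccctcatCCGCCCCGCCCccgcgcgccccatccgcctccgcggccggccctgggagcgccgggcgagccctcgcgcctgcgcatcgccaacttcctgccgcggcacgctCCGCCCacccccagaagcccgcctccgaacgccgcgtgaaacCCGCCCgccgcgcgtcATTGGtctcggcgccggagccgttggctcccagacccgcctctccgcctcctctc
CHD3: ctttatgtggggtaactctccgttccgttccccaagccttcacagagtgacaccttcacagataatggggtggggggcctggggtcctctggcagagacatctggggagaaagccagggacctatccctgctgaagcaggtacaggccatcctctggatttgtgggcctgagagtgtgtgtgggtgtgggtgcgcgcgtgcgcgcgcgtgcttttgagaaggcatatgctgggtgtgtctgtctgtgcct
The other motifs searched, on both strands, were rare. TTTGGCGC or TTTCCCGC, both E2F-type sites, and GCGCATGC, part of an NRF1 site, occur in 0 of the 15 windows and in 1.93% and 2.63% of all windows. CACGTG, an E-box, occurs in 1 window, of RBBP4, and in 6.35% of all. ATGGCGGC, part of a YY1 site, occurs in 1 window, of MTA2, and in 1.3% of all. That window belongs to the later MTA2 start and lies past the earlier one. GGGCGG is shared by 2 of the 3 genes that did not pass and by all 7 that fell, so its presence did not separate them; a match describes letters and not binding.

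The target of the siRNA was low in every LSD1 array. KDM1A had signals of 2540, 2493 and 2295 in the control arrays and 291, 184 and 228 in the LSD1 arrays, or 9.58% of control (log2 change -3.32, SE 0.13, limma adjusted p = 1.46e-08). The trimmed mean signal was 499.9 on each of the 6 arrays. The ratio of the 3' to the 5' probe sets of ACTB, a sign of RNA quality, was 1.74 on control array 1 and 1.33 to 1.43 on the other 5 arrays. Without that array, 5 of the 10 subunit genes passed, CHD4 and MBD2 being lost, and the median of the 10 genes was -0.51. The count was also 5 without control array 2 or without LSD1 array 1. Over all 13822 genes 5673 passed on all arrays. Without control array 1, control array 2 or LSD1 array 1 that number was 5116, 4984 or 5059. VIM and CD44, which mark mesenchymal-like lines such as this, had signals of 25223 to 37928 and 11744 to 13298 and did not pass the test. EGFR, also read as a gene present in this line, fell (log2 change -0.25, limma adjusted p = 0.0191), a call lost without control array 2 or LSD1 array 1 or 2. None of VIM, CD44 and EGFR fell with no intensity trend or under an unmoderated test. The same held with the mean of all probe sets or with sets that have no x or s suffix. ESR1, which encodes the oestrogen receptor the line is labelled as lacking, had signals of 48.0 to 95.2; PGR and CDH1, also low in this line, had control means of 60.7 and 163 and LSD1 means of 29.5 and 129, and none of the 3 passed. Of 3 leukocyte markers PTPRC lay below the filter on low signals, a mean of 28.0. CD14 and CD3E had dim signals of 25.8 to 62.3 and 36.1 to 79.8. Neither passed the test, which compares the groups and does not show whether their RNA was present. Arrays of whole cultures cannot tell fewer cells of a kind from less RNA per cell, and a change in the total RNA of a cell would not show after the arrays were scaled alike.

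**Figure D1:**
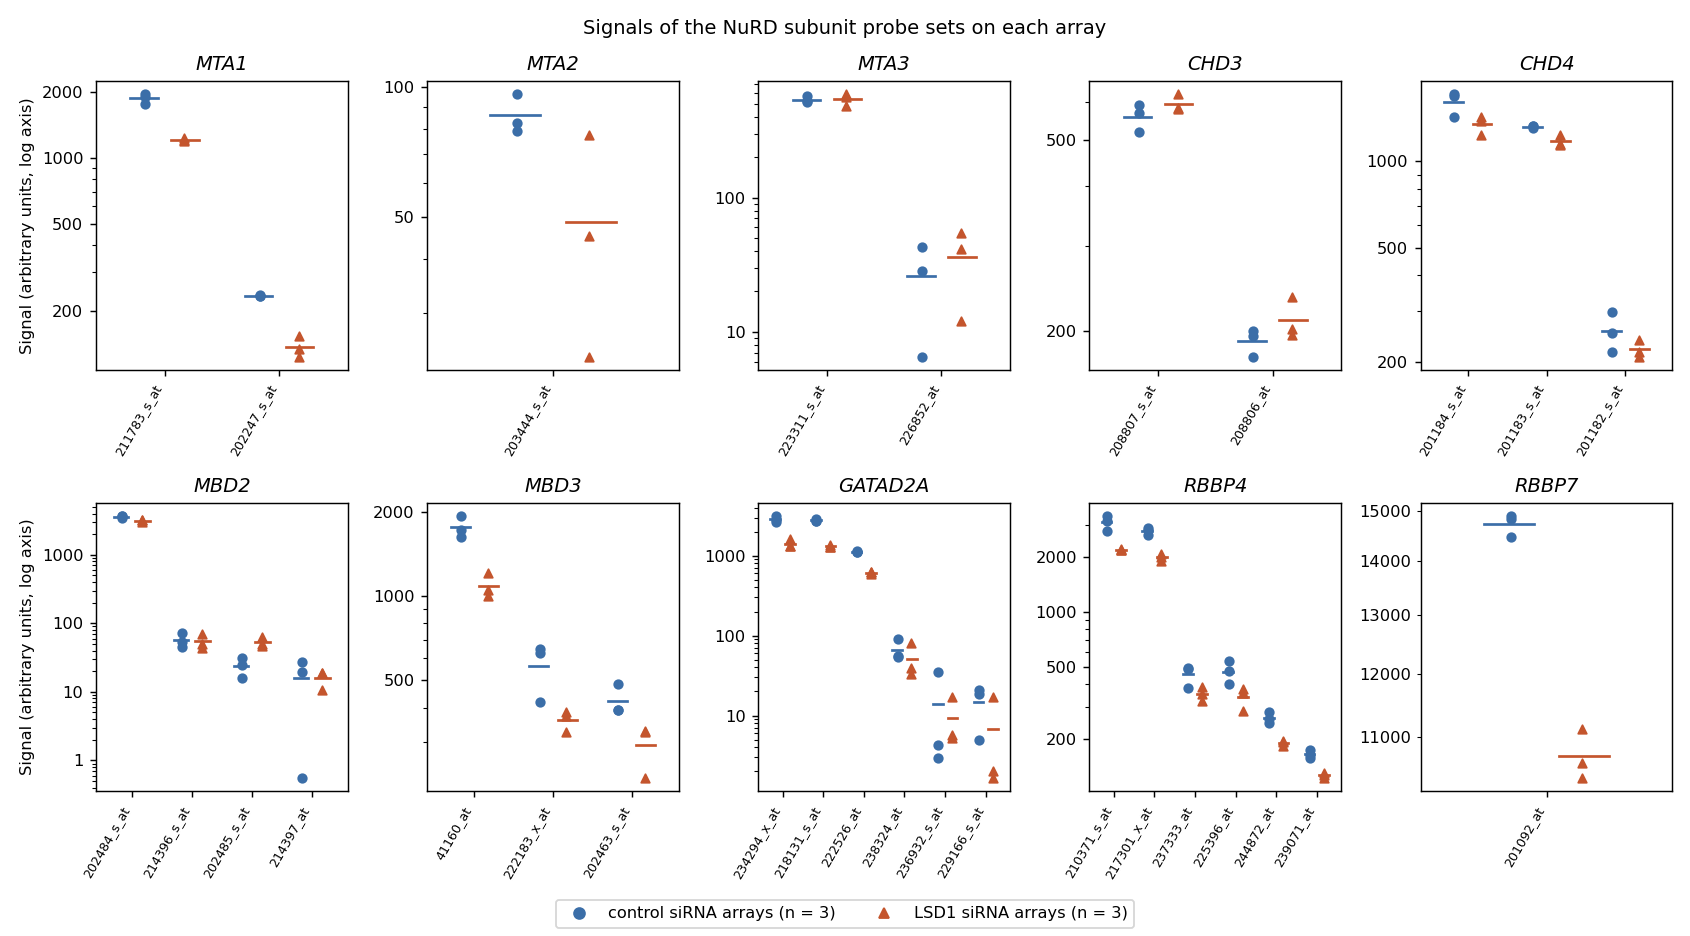
Signal (arbitrary units, log axis) of all 30 member probe sets on each array, by gene, with control siRNA arrays as circles, LSD1 siRNA arrays as triangles and group means as bars. For GATAD2A, MBD3, MTA1 and RBBP7 the LSD1 arrays of the brightest sets lie below all control arrays, while those of MTA3 and CHD3 overlap.

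GATAD2A, the bridge between MBD protein and remodeller, had the largest change of the 10 genes by brightest probe set. With the mean of all its sets, 2 of them below the filter, the log2 change was -0.65, behind the dim gene MTA2 at -0.75 and MTA1 at -0.67. Its signals were 2736, 2858 and 2731 in the control arrays and 1350, 1273 and 1287 in the LSD1 arrays, a mean of 2775 ± 72.0 against 1303 ± 41.4 (SD, n = 3). The groups were far apart relative to the spread within each (log2 change -1.08, SE 0.06, limma adjusted p = 1.75e-07). Of its 6 probe sets, 2 lay below the filter, 3 fell and 1 did not pass. The other sets that fell, 234294_x_at and 222526_at, had log2 changes of -1.01 and -0.85, while the dim set 238324_at, at -0.34, overlapped between groups. Its paralog GATAD2B, which takes the same place in the complex, had 361, 356 and 351 in the control arrays and 269, 283 and 278 in the LSD1 arrays. GATAD2B fell with a log2 change of -0.35 (limma adjusted p = 0.0210), but the call was lost without control array 1 or 2 or LSD1 array 1 or 3, at adjusted p from 0.0507 to 0.0589. Its second set also fell, with a log2 change of -0.87.

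MBD3 and MBD2, the alternative methyl-CpG-binding domain subunits, both fell by their brightest probe sets, and those of MBD2 disagreed among themselves. MBD3 had signals of 1944, 1733 and 1626 in the control arrays and 1215, 1055 and 1007 in the LSD1 arrays, with no overlap. Its log2 change was -0.69 (SE 0.09, limma adjusted p = 8.27e-05), and the other 2 sets fell too, with -0.60 and -0.52. The call of the last of these, 202463_s_at, was lost without control array 3 or LSD1 array 2. MBD2 had 3710, 3668 and 3429 in the control arrays and 3021, 3222 and 3238 in the LSD1 arrays, a smaller difference without overlap. Its log2 change was -0.19 (SE 0.06, limma adjusted p = 0.0281), and the call was lost when any of 5 arrays was left out, all but control array 3, at adjusted p from 0.0519 to 0.106.

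The other MBD2 probe sets did not follow the brightest. The dim set 202485_s_at had 16.1, 30.8 and 24.7 in the control arrays and 47.1, 63.4 and 49.9 in the LSD1 arrays. It was the 1 member set with all LSD1 arrays above all control arrays, with a log2 change of 0.83 that missed the threshold (limma adjusted p = 0.0559 over 27079 probe sets). Its control mean, 23.9, lay under the filter, and the set was tested only through its LSD1 arrays, with a mean of 53.5. The set 214396_s_at overlapped between groups, at -0.05, and 214397_at lay below the filter. With the mean of all MBD2 sets in place of the brightest, the log2 change was 0.18 (limma adjusted p = 0.40), a value that holds 202485_s_at and 214397_at, whose control means both lay under the filter.

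Of the MTA subunits, which recruit the deacetylases, MTA1 fell, and MTA2 and MTA3 did not pass. MTA1 had signals of 1760, 1900 and 1953 in the control arrays and 1210, 1197 and 1226 in the LSD1 arrays. These groups did not overlap (log2 change -0.62, SE 0.07, limma adjusted p = 1.94e-05), and its second set, with 236, 235 and 235 against 124, 153 and 135, fell as well (-0.72, adjusted p = 0.00215). MTA2 had 82.6, 96.4 and 79.3 in the control arrays and 45.1, 23.8 and 77.4 in the LSD1 arrays. These signals were dim, near the 48.0 to 95.2 of ESR1, which the line is labelled as lacking. For MTA2 all LSD1 arrays lay below all control arrays, LSD1 array 3 only just, and its single set did not pass (log2 change -0.75, 95% interval -1.44 to -0.06, limma adjusted p = 0.0787). Without LSD1 array 3 the value was -1.06 and passed (adjusted p = 0.0205). MTA3 had 569, 517 and 525 in the control arrays and 561, 486 and 592 in the LSD1 arrays. The groups overlapped, with a log2 change of 0.02 (95% interval -0.20 to 0.24, limma adjusted p = 0.894), and its second set lay below the filter.

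Of the remodelling ATPases, CHD4 passed the test and CHD3 did not. CHD4 had signals of 1690, 1718 and 1432 in the control arrays and 1384, 1427 and 1236 in the LSD1 arrays. The highest LSD1 array, at 1427, was just under the lowest control array, at 1432. The log2 change was -0.25 (SE 0.09, limma adjusted p = 0.0354), and the call was lost without control array 1 or 2 or LSD1 array 1 or 3, at adjusted p from 0.0573 to 0.144. The other 2 CHD4 sets had changes of -0.17 and -0.19 and did not pass. CHD3 had 590, 567 and 518 in the control arrays and 579, 582 and 622 in the LSD1 arrays, which overlap. Its log2 change was 0.09 (95% interval -0.11 to 0.29, limma adjusted p = 0.474), and its second set, at 0.13, did not pass either.

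The histone-binding subunits RBBP4 and RBBP7 both fell. RBBP4 had signals of 2790, 3151 and 3363 in the control arrays and 2171, 2216 and 2182 in the LSD1 arrays, with a log2 change of -0.50 (SE 0.07, limma adjusted p = 1.93e-04). All 6 RBBP4 sets had a negative change, from -0.50 to -0.33, and 4 passed. The calls of 225396_at and 244872_at were each lost without some single arrays: the first without control array 1 or 2 or LSD1 array 3, the second without control array 3 or LSD1 array 2. RBBP7 had 14902, 14839 and 14466 in the control arrays and 10393, 10618 and 11113 in the LSD1 arrays. Its groups lay far apart (log2 change -0.46, SE 0.06, limma adjusted p = 5.91e-05).

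Counted by probe set, 15 of the 26 member sets tested fell, none rose and 11 did not pass, while 4 of the 30 lay below the filter and were not tested. Over all 27079 probe sets tested, 17.4% fell and 17% rose by the same rule. In 18 of the 26 member sets all LSD1 arrays lay below all control arrays, as they did in 23.5% of all sets tested. The median log2 change of the 26 sets was -0.44, beside -0.02 over all sets. Every tested set of MTA1, MBD3 and RBBP7 fell, whereas CHD4, MBD2, GATAD2A and RBBP4 each had sets that did not pass. Sets of the same gene read the same RNA and are not replicates.

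**Figure D2:**
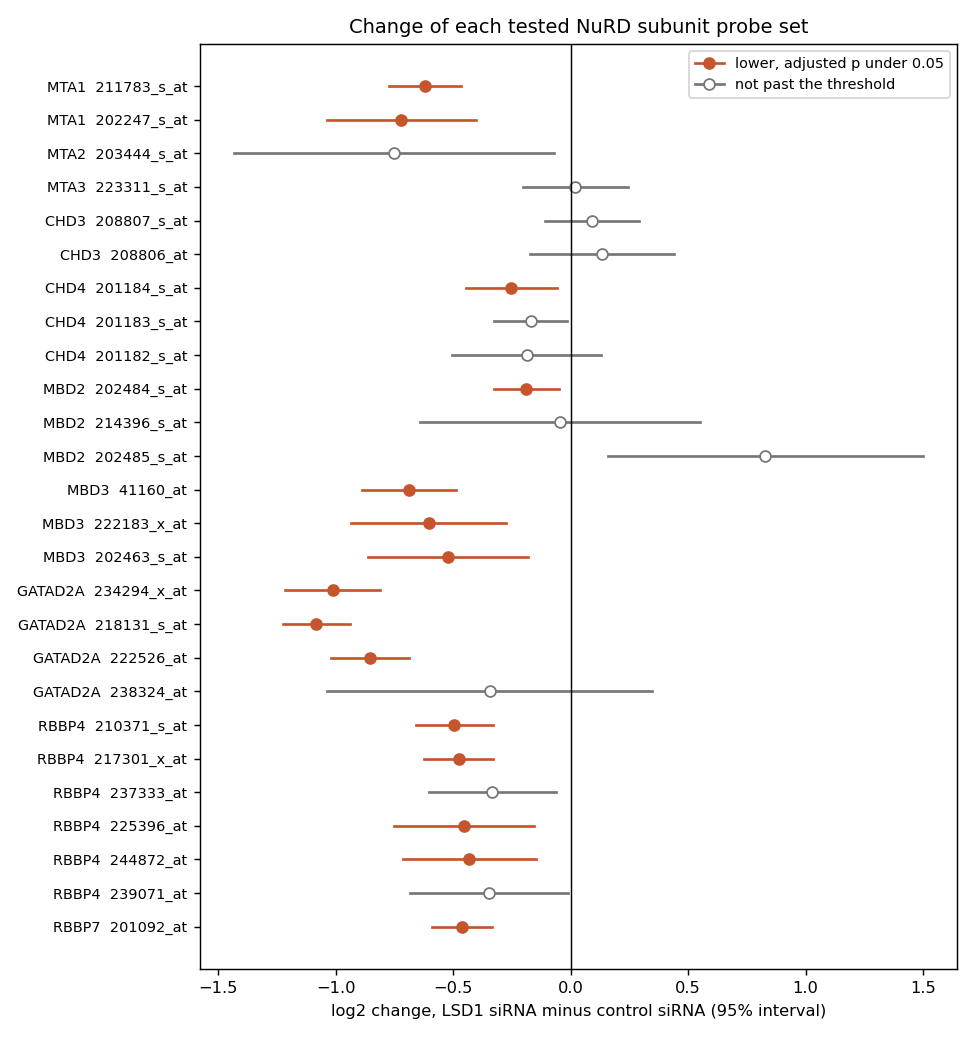
Log2 change (LSD1 siRNA minus control siRNA) with its 95% interval for the 26 member probe sets tested, filled where the set fell past the threshold and open where it did not pass. The 15 filled points lie left of 0, with GATAD2A farthest, and MBD2 202485_s_at is the open point at 0.83.

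Paralogs were compared within each array, as the log2 signal of the first gene minus that of the other, and the change of this difference between groups was tested by exact two-sided permutation of the array labels. With 3 arrays against 3 the smallest p this can give is 0.1, so none of the 7 pairs could pass 0.05. The GATAD2A minus GATAD2B difference was lower by 0.73 on the LSD1 arrays (change -0.73, 95% interval -0.88 to -0.59), without overlap between groups. The MTA1 minus MTA3 difference changed by -0.64 (95% interval -0.95 to -0.33) and MTA2 minus MTA3 by -0.77 (-1.60 to 0.06). In these pairs the first gene lost more signal than its paralog on every LSD1 array, measured against the control arrays. MTA2 was dim, with means of 86.1 on the control and 48.8 on the LSD1 arrays, so its pairs rest on signals near those of ESR1. CHD3 minus CHD4 changed by 0.34 (95% interval 0.06 to 0.62) and MBD2 minus MBD3 by 0.50 (0.16 to 0.84), again without overlap. Each of these 5 pairs reached the smallest exact permutation p, 0.1 (0.14 adjusted over the 7 pairs). RBBP4 minus RBBP7 overlapped and changed by -0.03 (95% interval -0.30 to 0.23, exact permutation p = 0.8). MTA1 minus MTA2 also overlapped and changed by 0.13 (95% interval -0.87 to 1.13, exact permutation p = 0.8), an interval wide enough to hold large differences either way. With the mean of all sets of a gene, the GATAD2A minus GATAD2B change was -0.041, as GATAD2A then had a log2 change of -0.65 and GATAD2B one of -0.61. That GATAD2A mean holds 236932_s_at and 229166_s_at, below the filter with control means of 14.1 and 14.9, and the dim 238324_at. The bright GATAD2A sets 218131_s_at, 234294_x_at and 222526_at had -1.08, -1.01 and -0.85. The GATAD2B mean holds its second set, which passed the filter with a control mean of 178 and fell (log2 change -0.87). The brightest GATAD2B set had -0.35, so the pair change depends on the sets used for both genes.

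**Figure D3:**
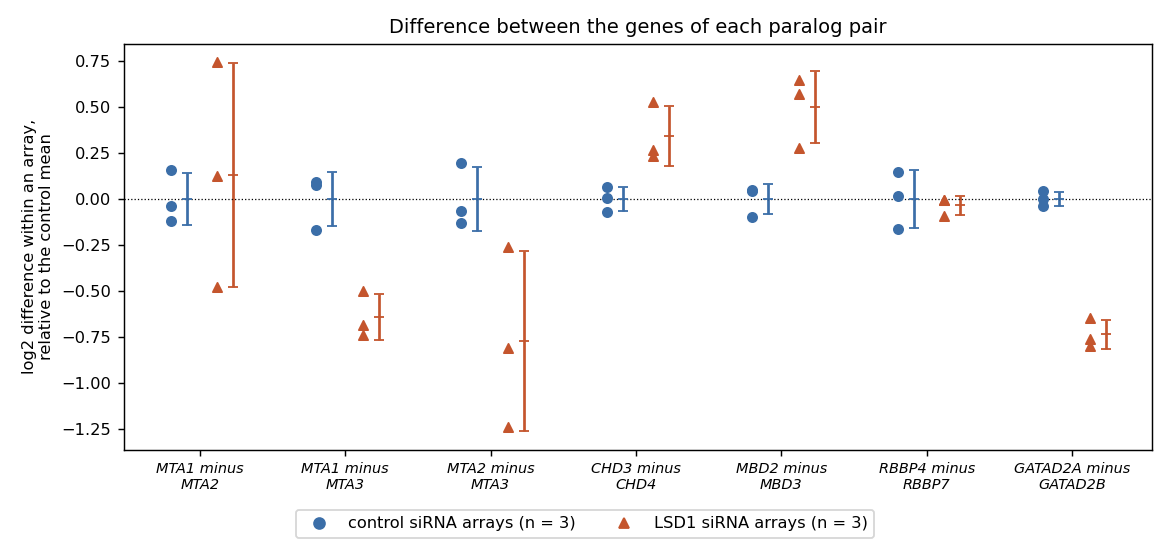
Within-array log2 difference between the genes of each pair, relative to the control mean, for each control (circles) and LSD1 (triangles) array, with group mean and SD beside the points. GATAD2A minus GATAD2B, MTA1 minus MTA3 and MTA2 minus MTA3 lie lower on the LSD1 arrays, CHD3 minus CHD4 and MBD2 minus MBD3 higher, and the other pairs overlap.

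Both deacetylases of the complex fell. HDAC1 had signals of 7989, 7821 and 7821 in the control arrays and 6681, 6180 and 6297 in the LSD1 arrays (log2 change -0.30, limma adjusted p = 0.00115). HDAC2 had 6947, 6325 and 6535 in the control arrays and 5570, 5386 and 5440 in the LSD1 arrays (-0.27, adjusted p = 0.00286). Neither gene overlapped between groups. A dim second HDAC2 set had a change of 0.21 and did not pass, and with the mean of both HDAC2 sets the value was -0.03 (limma adjusted p = 0.812). CDK2AP1, a small subunit, had a change of -0.05 and did not pass, and CHD5, the third remodeller of this group, lay below the filter.

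Of 16 transcription factors and adaptors known to bind NuRD, 3 rose, 2 fell and 11 did not pass (median -0.09). These shares are near those of all genes tested, of which 19.8% rose and 21.3% fell, so the counts are no result about the partners. SNAI2, a zinc-finger repressor of epithelial genes, rose from 1190, 1026 and 1143 to 2256, 2067 and 2076 (log2 change 0.92, limma adjusted p = 2.34e-06). ZNF217, a zinc-finger protein amplified in breast cancers, rose by 0.50 on the log2 scale, and BCL6, a repressor first known from lymphocytes, by 0.27; BCL6 was named after its value was seen, to complete the 3. BEND3, a heterochromatin-associated repressor, had a log2 change of -0.84 and ZNF592 one of -0.45, and both fell. The count of 2 that fell became 1 without control array 2, LSD1 array 2 or LSD1 array 3.

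Relatives of the members outside NuRD were few, and their counts stand beside 19.8% of all genes that rose and 21.3% that fell. Of 4 other genes with a methyl-CpG-binding domain, MBD1 and MBD5 rose (log2 change 0.34 and 0.48), MBD6 fell (-0.42) and MBD4 did not pass (median 0.21). Of 7 other CHD remodellers, CHD9 rose (0.34), CHD7, CHD8 and CHD1L fell (-0.67, -0.49 and -0.22) and 3 did not pass (median -0.22). Of 4 genes of the NCoR and HDAC3 complex, TBL1X (-0.83) and HDAC3 (-0.27) fell and 2 did not pass (median -0.19). With the mean of all probe sets none of these MBD genes or CHD genes rose, and 1 CHD gene fell.

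Complexes that share subunits with NuRD were counted by the same test, by which 21.3% of all genes fell. In the SIN3 complex, which shares the deacetylases and both RBBP proteins, 6 of 11 genes fell, 1 rose and 4 did not pass (median -0.29). SAP130 (log2 change -0.66), BRMS1 (-0.40) and SIN3A (-0.42) were among those that fell, and ARID4B rose (0.32); 3 fell without control array 1 or with the mean of all probe sets, and 2 under an unmoderated test. Of 12 genes of other complexes that use RBBP4 or RBBP7, 8 fell and 4 did not pass (median -0.49). CHAF1A (-1.73), MYBL2 (-1.45) and CHAF1B (-1.27) had the largest changes. CHAF1A and CHAF1B are the large subunits of the histone chaperone CAF-1, and MYBL2 binds the cell cycle complex MuvB. EZH2 (-0.98), the methyltransferase of Polycomb complex PRC2, also fell.

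Genes of DNA synthesis were measured beside the members because CAF-1 and other RBBP complexes act on newly made DNA. All 13 fell, with a median log2 change of -0.96; MCM7, a subunit of the replicative helicase, had -1.16 and UHRF1, which maintains DNA methylation at replication, -1.17. Their summed signal was 104343 to 105261 on the control arrays and 60858 to 62502 on the LSD1 arrays, and that of the 10 NuRD genes was 30123 to 31049 and 21930 to 22580. The NuRD sum leans on its brightest gene, RBBP7, with means of 14736 on the control and 10708 on the LSD1 arrays. Whether the levels of NuRD RNAs follow those of the DNA synthesis genes was not tested.

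**Figure D4:**
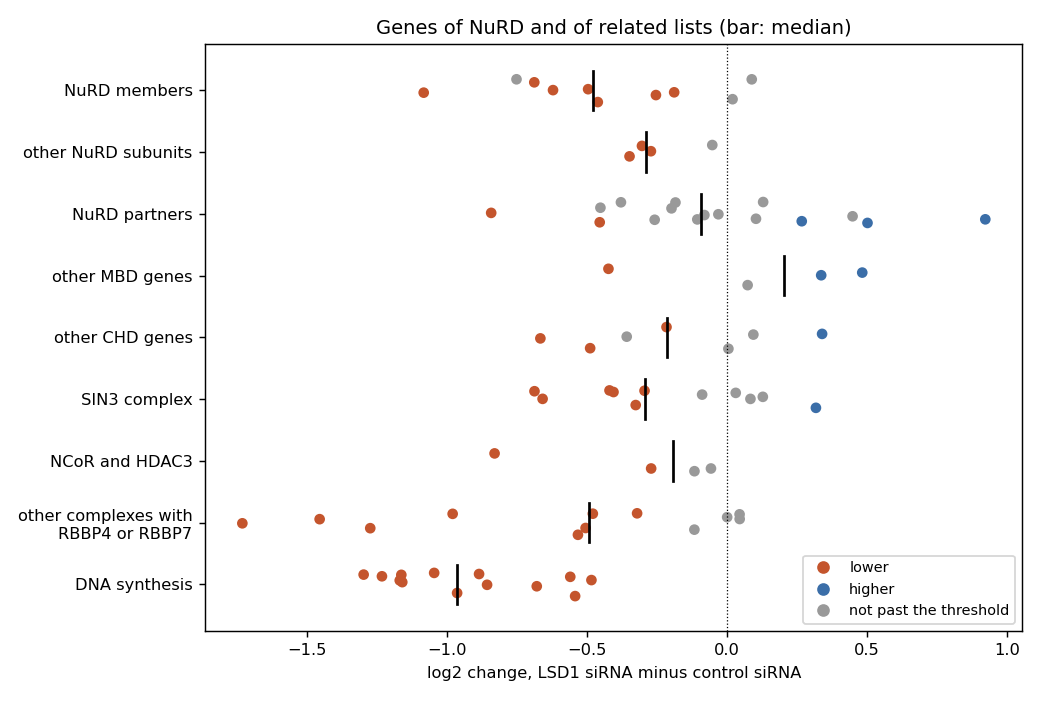
Log2 change (LSD1 siRNA minus control siRNA) of each tested gene in the NuRD members and 8 related lists, coloured by call, with the list's median as a bar. NuRD members have a median of -0.48, partners -0.09, genes of other RBBP complexes -0.49 and DNA synthesis genes -0.96.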

How the data were processed

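RNA of 3 control siRNA and 3 LSD1 siRNA cultures was labelled from 2.5 ug of total RNA and hybridised to Affymetrix arrays, 1 array a sample. The authors deposited linear signal intensity values, and per the submitters' processing notes used GCOS, Affymetrix Expression Console 1.1 and MAS5. These intensities are already scaled to a common trimmed mean and carry no detection calls here, and MAS5 signals are noisy when dim. Genes were named from the platform annotation; probe sets with several symbols (1801) or not listed (11777) were left out of gene tests, as were 62 control sets.

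Intensities were taken as log2(signal + 15), 15 being about the 25th percentile, so changes of dim genes are understated. Sets with a mean under the 40th percentile (28.0) were not tested. Each gene was its brightest set, one with an x suffix (probes shared between genes) only where it had no other. The groups were compared in limma 3.58.1 (R 4.3.3; lmFit and eBayes with an intensity trend, tested on simulated data), with Benjamini-Hochberg adjustment over all genes or sets. Figures used matplotlib 3.10.9. The number of arrays limits the precision.

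Named were all members, KDM1A, 5 other subunits and, from each further list, up to 4 genes of smallest p past the threshold and genes past it against their list. The members and lists were chosen with earlier results of these data known. Alternatives changed the constant, filter, normalization, variance model, probe set choice, replicate block and arrays.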

Additional observations from a re-analysis of the deposited data

How the results depend on the processing

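Over 17 alternatives 5 to 7 of the 10 subunit genes fell. MTA1, MBD3, GATAD2A, RBBP7 and HDAC1 kept direction and call in all 17, and RBBP4 in 16 (adjusted p = 0.0502 with sets that have no x or s suffix). CHD4 lost its call in 7. MBD2 lost it in 7 and turned to 0.18 with the mean of all probe sets. Between 5 and 16 member probe sets fell: 5 with sets that have no x or s suffix, where only 9 were tested. With no intensity trend in the limma fit, 1 member set passed as higher, MBD2 202485_s_at (adjusted p = 0.0170), which had a control mean under the filter. With the mean of all probe sets, the pair changes were -0.84 for MTA1 minus MTA3, 0.78 for MBD2 minus MBD3 and -0.041 for GATAD2A minus GATAD2B. For MTA3, MBD2 and GATAD2A these means hold sets below the filter, which the brightest sets leave out. The GATAD2B mean adds a set that passed the filter and fell more than the brightest. The cause of the shifts was not tested. Of 71 genes in the 8 related lists 45 passed, beside 5673 of all 13822, and 32 to 46 over the alternatives.

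The replicate numbers are shared between groups, and the labels state no pairing. Deviations of same-numbered arrays correlated at 0.01, -0.01 and 0.02, which with 3 arrays a group cannot settle whether the cultures were paired. With the replicate block 7 subunit genes and 15 member sets fell. Dim sets such as those of MTA2 have wide intervals, and 3 arrays a group set the precision.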
